A study of Mus musculus with 4 samples.

Results

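The genes described here are 46 genes of the neuronal cytoskeleton, the synapse and the neurosecretory vesicle, read in mouse embryonic stem cells after Kdm2b knockdown. They are a fixed list of symbols, chosen with earlier results of these data known and sorted here into 6 groups by the role of the protein. Of the 46 genes 45 were measured, among 19938 genes in all. Vamp2, a vesicle SNARE, was the exception: its probe set was annotated to both Ubr3 and Vamp2 and was not used. Where a gene had several probe sets with 1 symbol, the one with the highest mean over the arrays was taken.

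The study compared 2 arrays of Kdm2b knockdown cells with 2 arrays of control cells. All were E14 cells, an embryonic stem cell line labelled as inbred 129 in strain, grown on gelatin with serum and leukemia inhibitory factor, a cytokine that holds such cells in the undifferentiated state. Both groups were infected with lentiviral vectors at 10 MOI and then selected with puromycin at 2 µg/ml, added 48 h after transduction. The labels do not name the vector that the control cells received, and they do not say whether the replicates were separate cultures, so the spread between replicates may be technical. Total RNA was hybridised to MoGene 1.0 ST arrays, and the deposited values are log2 expression per probe set. Differences between values on this scale are log2 fold changes. The number of arrays limits the precision, and levels of different genes are not set against each other, since each probe set has its own response.

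Neurons build their processes from neurofilaments and from microtubules held by associated proteins, and they release transmitters when SNARE proteins fuse synaptic vesicles with the membrane. Cell adhesion molecules join the sides of a synapse, and peptide hormones leave through dense-core vesicles filled with granins and processing enzymes. In stem cells and other non-neuronal cells many such genes are repressed by the zinc finger protein REST, whose name stands for RE1-silencing transcription factor. Kdm2b is a histone demethylase that binds unmethylated CG pairs through a zinc finger and brings a variant of Polycomb repressive complex 1 to CpG islands.

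Kdm2b had log2 values of 9.20 and 9.19 on the knockdown arrays, against 10.74 and 10.64 on the control arrays. Its level was 2.82-fold lower after knockdown (log2 fold change -1.495, SE 0.066, adjusted p = 0.0039, limma). Over all probe sets, replicate arrays correlated more closely than arrays of different groups, with r of 0.9966 for the knockdown pair and 0.9963 for the control pair, against 0.9922 to 0.9936 between groups.

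After Kdm2b knockdown 6 of the 45 measured neuronal genes were higher, none was lower and 39 did not pass the threshold of an adjusted p under 0.05 (limma). The 6 were the prohormone-processing enzyme gene Cpe, the stathmin gene Stmn3, the intermediate filament genes Nes and Nefh, the growth cone gene Gap43 and the syntaxin gene Stx1a. Over all genes tested, 5.0% were called higher and 7.19% lower, so the members' share of 13.3% called higher stood above the background and their share called lower, 0%, stood below it. The split over all genes, 997 higher and 1434 lower, was 841 higher and 1866 lower with each array centred on its median. At an unadjusted p under 0.05, 12 of the 45 members had positive and 4 negative differences, against 3016 and 2925 of the 19938 genes. The median log2 fold change was 0.07 over the members and 0.03 over all genes. The list was chosen with earlier results of these data known, and no test of it as a whole was made. Nothing particular to the list is drawn from these shares.

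**Figure D1:**
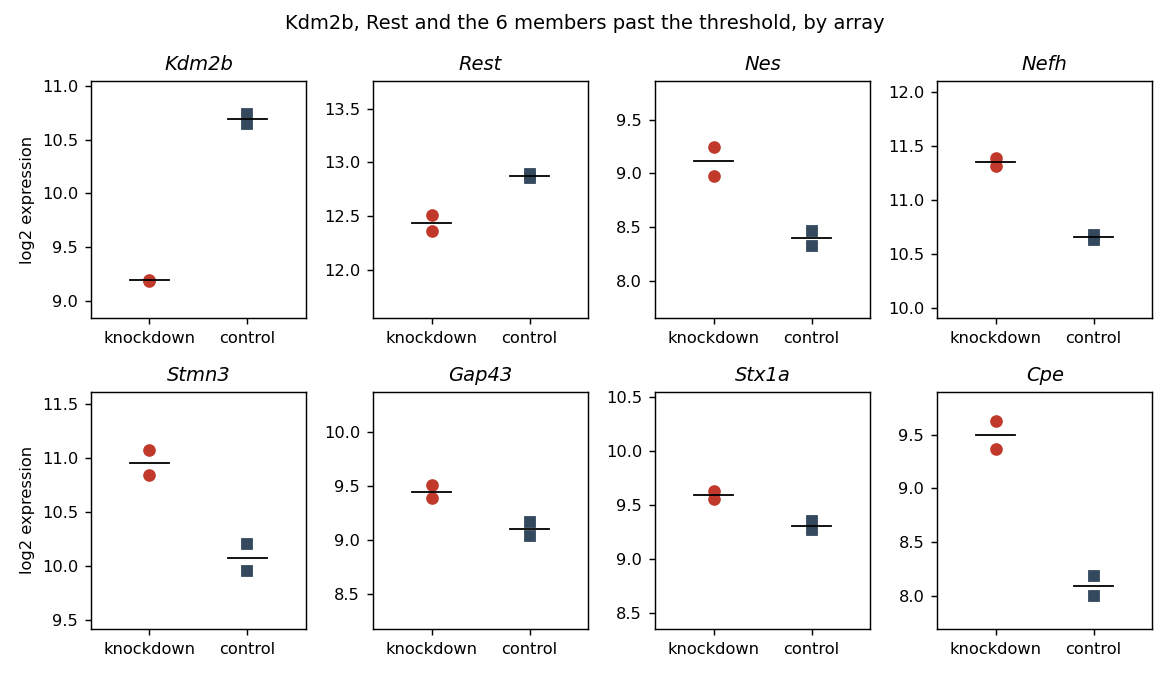
Log2 expression on each array (points) for Kdm2b, Rest and the 6 neuronal genes past the threshold, with knockdown arrays as circles on the left, control arrays as squares on the right and a line at each group's mean. Every panel spans the same number of log2 units, and the groups overlap in none of the 8 panels. The 6 genes were picked by limma on these same arrays, and 58.8% of all genes did not overlap either.

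Both knockdown arrays lay above both control arrays for 21 of the 45 members, and below them for 8, while the groups overlapped for 16. Over all genes these arrangements took 33.8% (knockdown above) and 25.0% (knockdown below), against 46.7% and 17.8% of the members. All 6 called genes were among the 28 members whose mean log2 value lay above the median over all probe sets, 8.52. The 17 dimmer members had log2 fold changes from -0.24 to 0.33, and none of them passed in limma, with 3 at an unadjusted p under 0.05. Of all genes, 766 were higher and 1240 lower among the 11516 above this value, and 231 were higher and 194 lower among the 8422 dimmer ones, so few calls fall to 17 dim genes at the background rate. Replicates of a group differed by a median of 0.09 log2 units between the knockdown arrays and 0.1 between the control arrays over the members. The widest replicate gaps were 0.32 for Map1b in knockdown cells and 0.26 for Ina in control cells.

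**Figure D2:**
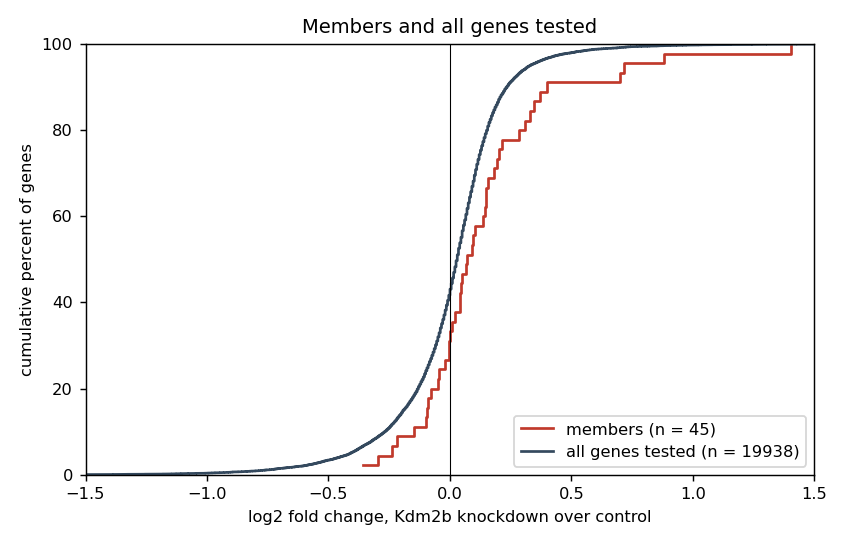
Cumulative percent of genes against the log2 fold change of knockdown over control, for the 45 members and for all 19938 genes tested. The axis leaves out the farthest of all genes, which run from -2.20 to 2.60. The members' curve lies to the right of the other over most of its length, with medians of 0.07 and 0.03, and its right end is made by Cpe at 1.405, Stmn3 at 0.88, Nes at 0.715 and Nefh at 0.70.

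The calls rest on 2 arrays a group. With any 1 array left out limma made no call among all genes, higher or lower, while 3495 to 4215 had an unadjusted p under 0.05. Each of those fits has 1 residual degree of freedom. No gene was called either when every one of the 35557 probe sets of the table was tested together, an alternative added after seeing the data (7742 at an unadjusted p under 0.05). The 6 genes kept their direction in all of these fits.

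The markers of other cells that such a culture could hold were read beside these counts. In bulk RNA a change in the number of cells of a type and a change in RNA per cell cannot be told apart. Of 8 defining markers of neurons none passed in limma (1 negative at an unadjusted p under 0.05). All 8 are members, and none is among the 6 called genes, so this count repeats member values and is no separate reading. Their mean log2 level was 9.405 and 9.341 on the knockdown arrays, against 9.352 and 9.384 on the control arrays, so the groups overlapped. Markers of pluripotent stem cells (0 of 10 called, 3 at an unadjusted p under 0.05) averaged 13.15 and 13.18, against 13.13 on both control arrays. Of 11 glial and 10 fibroblast markers none was called in limma, with 5 (all positive) and 0 at an unadjusted p under 0.05. The glial median log2 fold change was 0.16, against 0.03 over all genes. The glial mean was 8.196 and 8.186 on the knockdown arrays, against 8.125 and 8.091 on the control arrays. The fibroblast mean was 7.993 and 7.987, against 7.941 and 7.926. The pluripotent, glial and fibroblast means thus all lay higher on both knockdown arrays.

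Primitive endoderm markers were the only marker set with calls in limma. Of 10 measured, 4 were higher and none lower, namely Gata6, Dab2, Col4a1 and Sox17, and 8 were positive at an unadjusted p under 0.05. Over all genes 5.0% were called higher and 7.19% lower, and 3016 of 19938 were positive at that unadjusted p. Sox17 was dim, with a mean log2 value of 8.19. The mean log2 level of the 10 markers was 9.587 and 10.02 on the knockdown arrays, against 9.13 and 8.946 on the control arrays. Gata6 read 11.74 and 12.60 in knockdown cells, against 10.07 and 10.04 in control cells. What part such cells had in the neuronal values was not tested. Arrays give no level of 0, so whether any marker was absent cannot be read from them.

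Promoter sequence was read for the genes with an entry in the RefSeq promoter table of build GRCm38.p6, which held 31 of the 45 measured members, among them Nes, Stmn3 and Stx1a of the called genes. These 3 are shown, together with Map2, the member with the most CG pairs in this window, which was not past the threshold. The sequences are the 250 bases before the annotated start, on the gene's strand, and capitals mark CG, the pair that Kdm2b binds when it is unmethylated.
Nes (chr3:87970843-87971092, + strand): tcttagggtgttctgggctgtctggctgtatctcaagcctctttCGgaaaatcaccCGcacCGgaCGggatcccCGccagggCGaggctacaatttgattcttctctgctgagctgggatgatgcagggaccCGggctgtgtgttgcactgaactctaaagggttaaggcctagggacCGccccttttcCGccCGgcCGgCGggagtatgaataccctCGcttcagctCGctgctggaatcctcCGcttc
Stmn3 (chr2:181314501-181314750, - strand): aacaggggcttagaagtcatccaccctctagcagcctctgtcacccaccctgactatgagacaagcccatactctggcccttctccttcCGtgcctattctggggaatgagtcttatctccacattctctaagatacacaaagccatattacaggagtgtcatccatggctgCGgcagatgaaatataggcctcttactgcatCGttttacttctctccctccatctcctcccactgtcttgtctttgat
Stx1a (chr5:135023232-135023481, + strand): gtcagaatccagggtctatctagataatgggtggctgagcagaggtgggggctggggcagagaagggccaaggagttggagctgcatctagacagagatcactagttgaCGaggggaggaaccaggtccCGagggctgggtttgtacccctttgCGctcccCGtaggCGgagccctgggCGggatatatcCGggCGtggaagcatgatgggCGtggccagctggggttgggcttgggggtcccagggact
Map2 (chr1:66175079-66175328, + strand): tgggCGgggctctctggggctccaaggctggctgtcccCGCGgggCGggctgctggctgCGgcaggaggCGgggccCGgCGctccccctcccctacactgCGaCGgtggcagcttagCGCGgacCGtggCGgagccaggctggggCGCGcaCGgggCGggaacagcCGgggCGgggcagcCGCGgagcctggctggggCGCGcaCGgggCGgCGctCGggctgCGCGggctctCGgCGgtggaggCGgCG

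The Nes window holds 15 CG pairs, that of Stx1a 9, that of Stmn3 3 and that of Map2 34. Over the 31 members the median was 15 pairs (from 3 to 34), taking the window with the most pairs where a gene has several starts, against 12 over the 15614 tested genes with an entry. The 28 members that did not pass had a median of 16. Over all genes the medians were 16 for those called higher, 15 for those called lower and 12 for the rest. The 3 called members with an entry lie at 3, 9 and 15 pairs, while Cpe, Nefh and Gap43 have no entry. The member richest in CG, Map2, had a log2 fold change of -0.08. A relation between CG count and log2 fold change was not tested. The letters were counted in this window alone, and methylation and Kdm2b binding were not measured on these arrays.

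**Figure D3:**
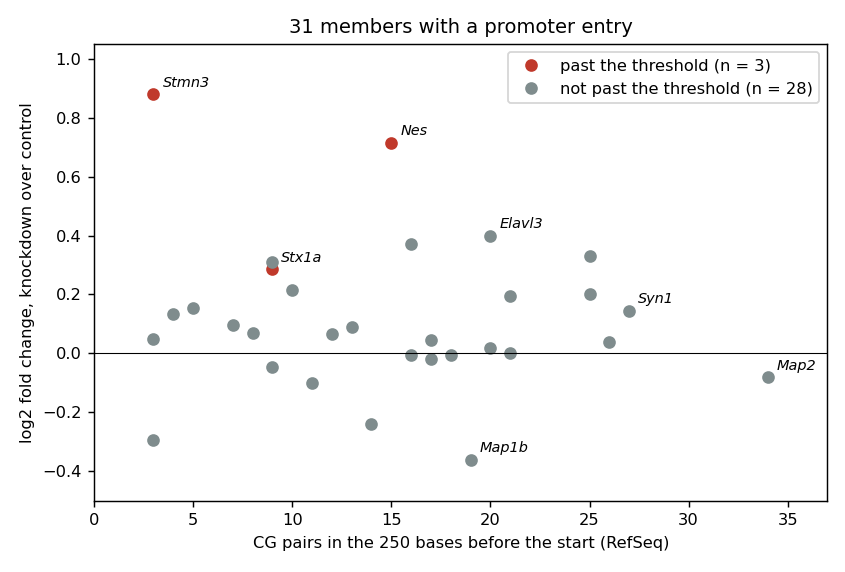
Log2 fold change of knockdown over control against the number of CG pairs in the 250 bases before the RefSeq start, for the 31 members with a promoter entry. The 3 called genes shown lie at 3 (Stmn3), 9 (Stx1a) and 15 (Nes) pairs, and Map2 lies farthest right at 34.

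A pair of stretches from the ends of the DNA element that REST binds was also searched on both strands of the same window. The letters GGACAGC occurred in 2 of the 31 members, or 6.45%, against 6.79% of all genes with an entry. The letters CAGCACC were found in 6, or 19.4%, against 6.82%. The members with CAGCACC were Celsr3, Chgb, Nlgn1, Scg2, Syn1 and Tubb3, and those with GGACAGC were Map2 and Scg2. None of these genes passed the threshold. Matches of 7 letters are a description and not binding sites, and the element can lie outside this window.

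Of the 5 intermediate filament genes, 2 were higher and 3 did not pass, and all 5 had positive log2 fold changes, with a median of 0.20. Over all genes, 5.0% were called higher and 7.19% lower, and 11344 of 19938 log2 fold changes were positive. No role group was tested as a set. Nes encodes nestin, the filament protein of neural progenitors. It had log2 values of 9.25 and 8.98 in knockdown cells, against 8.47 and 8.33 in control cells. Both knockdown values lay above both control values, as for 33.8% of all genes. Nes rose by 0.715 (SE 0.11, 95% interval 0.453 to 0.977, adjusted p = 0.0154, limma), a 1.64-fold difference. Nefh, the heavy neurofilament subunit, had 11.39 and 11.32 in knockdown cells, against 10.63 and 10.68 in control cells. It rose by 0.70 (SE 0.064, interval 0.542 to 0.858, adjusted p = 0.00624), or 1.62-fold, and its replicates differed by 0.07 in knockdown cells and 0.05 in control cells.

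The partners of Nefh in the neurofilament did not pass. Nefl, the light subunit, had 10.70 and 10.99 in knockdown cells, against 10.73 and 10.66 in control cells, so the groups overlapped (log2 fold change 0.15, interval -0.108 to 0.408). Nefm, the medium subunit, stood at 0.18 (interval -0.014 to 0.374) and internexin, encoded by Ina, at 0.20 (interval -0.040 to 0.440). Ina has a further probe set, which stood at 0.22. Each of these intervals lies below the 0.542 that bounds Nefh from below, but the differences between genes were not tested. Prph, which encodes peripherin, a neurofilament protein of peripheral neurons, belongs to the list of other cytoskeletal genes and rose by 0.45 (SE 0.077, adjusted p = 0.0212).

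Among microtubule and growth cone genes 2 of 11 were higher, none was lower and 9 did not pass. The shares over all genes were 5.0% higher and 7.19% lower. Stmn3, a stathmin that destabilises microtubules, had 11.07 and 10.84 in knockdown cells, against 10.20 and 9.95 in control cells. Its knockdown values exceeded every control value, as for 33.8% of all genes. Stmn3 rose by 0.88 (SE 0.12, interval 0.597 to 1.16, adjusted p = 0.012, limma), or 1.84-fold. The other probe set of Stmn3 read 6.10 and 5.99 in knockdown cells, against 6.14 and 5.95 in control cells, with a log2 fold change of 0, so that the mean of both gave 0.44 (adjusted p = 0.0433). The stathmins Stmn2 and Stmn4 stood at 0.105 (interval -0.064 to 0.274) and 0.04 (interval -0.133 to 0.213).

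Gap43, a membrane protein of the growing axon tip, had 9.51 and 9.39 in knockdown cells, against 9.04 and 9.17 in control cells. It rose by 0.345 (SE 0.079, interval 0.152 to 0.538, adjusted p = 0.0438, limma), close to the threshold. Basp1, a growth cone protein of similar kind from the list of other cytoskeletal genes, rose by 0.345 as well (SE 0.062, adjusted p = 0.0238).

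The tubulins and the structural microtubule-associated proteins of the list did not pass. Tubb3, the beta-tubulin used to mark young neurons, had 9.97 and 10.16 in knockdown cells, against 9.79 and 9.95 in control cells, which leaves a gap of 0.02 between the groups (log2 fold change 0.195, interval -0.035 to 0.425). Tubb2b, a beta-tubulin of the developing brain whose probes may also read the closely related Tubb2a, stood at -0.095 (interval -0.265 to 0.075). Map2, of dendrites, and Mapt, which encodes the axonal protein tau, stood at -0.08 and -0.09. Map1b had 12.05 and 11.73 in knockdown cells, against 12.23 and 12.27 in control cells, the most negative difference of the members (-0.36, interval -0.633 to -0.087, adjusted p = 0.0922). Without knockdown replicate 2 it stood at -0.20, and without knockdown replicate 1 at -0.52. Dcx and Dclk1, which bind microtubules in migrating neurons, stood at 0.05 (interval -0.112 to 0.212) and 0.135 (interval -0.048 to 0.318).

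In the vesicle release machinery 1 of 8 genes was higher, none was lower and 7 did not pass. The shares over all genes were 5.0% higher and 7.19% lower. Stx1a, the plasma membrane syntaxin of the synaptic SNARE complex, had 9.56 and 9.63 in knockdown cells, against 9.35 and 9.27 in control cells. The groups were separated by 0.21, and Stx1a rose by 0.285 (SE 0.067, interval 0.121 to 0.449, adjusted p = 0.0474, limma), a 1.22-fold difference just inside the threshold. The call was lost with each array centred on its median (0.245, adjusted p = 0.0791) and with an intensity trend in the prior (adjusted p = 0.0524).

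Snap25, its partner SNARE, ran the other way in value, with 8.61 and 8.55 in knockdown cells, against 8.74 and 8.72 in control cells (log2 fold change -0.15, interval -0.303 to 0.0026, adjusted p = 0.173). Syt1, the calcium sensor of fast release, overlapped between groups at 0.07 (interval -0.196 to 0.336), and Syt4, a related synaptotagmin, stood at 0.01. Syt11, another synaptotagmin, had 10.42 and 10.22 in knockdown cells, against 10.13 and 9.89 in control cells, a difference of 0.31 that did not pass (adjusted p = 0.123). The synapsins Syn1 and Syn2, which tether vesicles, stood at 0.145 and -0.005, and synaptophysin, encoded by Syp, at -0.10. The groups overlapped for all 3.

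None of the 11 adhesion genes passed in limma, with 2 positive and 1 negative at an unadjusted p under 0.05, and their median log2 fold change was 0.02. Nrcam, an immunoglobulin-family adhesion molecule of axons, had the highest value of the group. It read 7.56 and 7.29 in knockdown cells, against 7.09 and 7.10 in control cells (0.33, interval 0.088 to 0.572, adjusted p = 0.0851). Ncam1, the neural cell adhesion molecule, had 10.55 and 10.47 in knockdown cells, against 10.80 and 10.66 in control cells (-0.22, interval -0.406 to -0.034, adjusted p = 0.118). For both genes the groups did not overlap, and in opposite directions. Of all genes 58.8% did not overlap between the groups.

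Of the contactins, Cntn2 stood at 0.215 (interval 0.068 to 0.362, adjusted p = 0.0724) and Cntn1 at 0.095. The presynaptic neurexin genes Nrxn2 and Nrxn3 stood at -0.05 and 0.065. Their postsynaptic binding partners, the neuroligins, stood at -0.045 for Nlgn1, -0.005 for Nlgn2 and 0.15 for Nlgn3. L1cam, of growing axons, stood at 0.02, and Celsr3, a cadherin-family receptor that guides axon tracts, at -0.02. Over the whole group no 95% interval reached above 0.572 or below -0.406.

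Neuronal RNA-binding proteins had values of both signs. None of the 4 passed in limma, with 1 positive and 2 negative at an unadjusted p under 0.05. Elavl3, a Hu protein that stabilises neuronal transcripts, had 10.53 and 10.70 in knockdown cells, against 10.10 and 10.33 in control cells (0.40, interval 0.149 to 0.651). Its adjusted p of 0.059 was the nearest to the threshold on the outer side, and it passed after quantile normalization (0.0439) and with dim genes removed (0.0467), as did Cntn2 with dim genes removed (0.0476). Rbfox3, the splicing regulator known as the neuronal marker NeuN, had 8.47 and 8.35 in knockdown cells, against 8.83 and 8.58 in control cells (-0.295, interval -0.541 to -0.049, adjusted p = 0.115). The Hu genes Elavl2 and Elavl4 stood at 0 and -0.24, and Elavl1, a Hu gene expressed in most cell types and not a member, at 0.065.

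Dense-core vesicle cargo held the largest difference of the members. Cpe, or carboxypeptidase E, trims basic residues from peptide hormone precursors. It had log2 values of 9.63 and 9.37 in knockdown cells, against 8.19 and 8.0 in control cells. The groups lay 1.18 apart at their nearest, and Cpe rose by 1.405 (SE 0.11, interval 1.13 to 1.68, adjusted p = 0.00551, limma), or 2.65-fold.

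The other 5 cargo genes did not pass. All had positive values, as did 11344 of the 19938 genes tested. Chga, the granin used as a marker of neuroendocrine cells, had 10.89 and 11.13 in knockdown cells, against 10.58 and 10.70 in control cells (0.37, interval 0.129 to 0.611, adjusted p = 0.0648). Scg5, a chaperone of a prohormone convertase, read 7.78 on both knockdown arrays, against 7.62 and 7.63 on the control arrays (0.155, adjusted p = 0.149). The granins Scg2, Scg3 and Chgb stood at 0.09, 0.045 and 0.04. The interval of Cpe starts at 1.13, above the upper bound of every other cargo gene, of which the highest was 0.611 for Chga. Scg2, Scg3, Scg5 and Chgb are among the dimmer members, and the differences between genes were not tested.

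**Figure D4:**
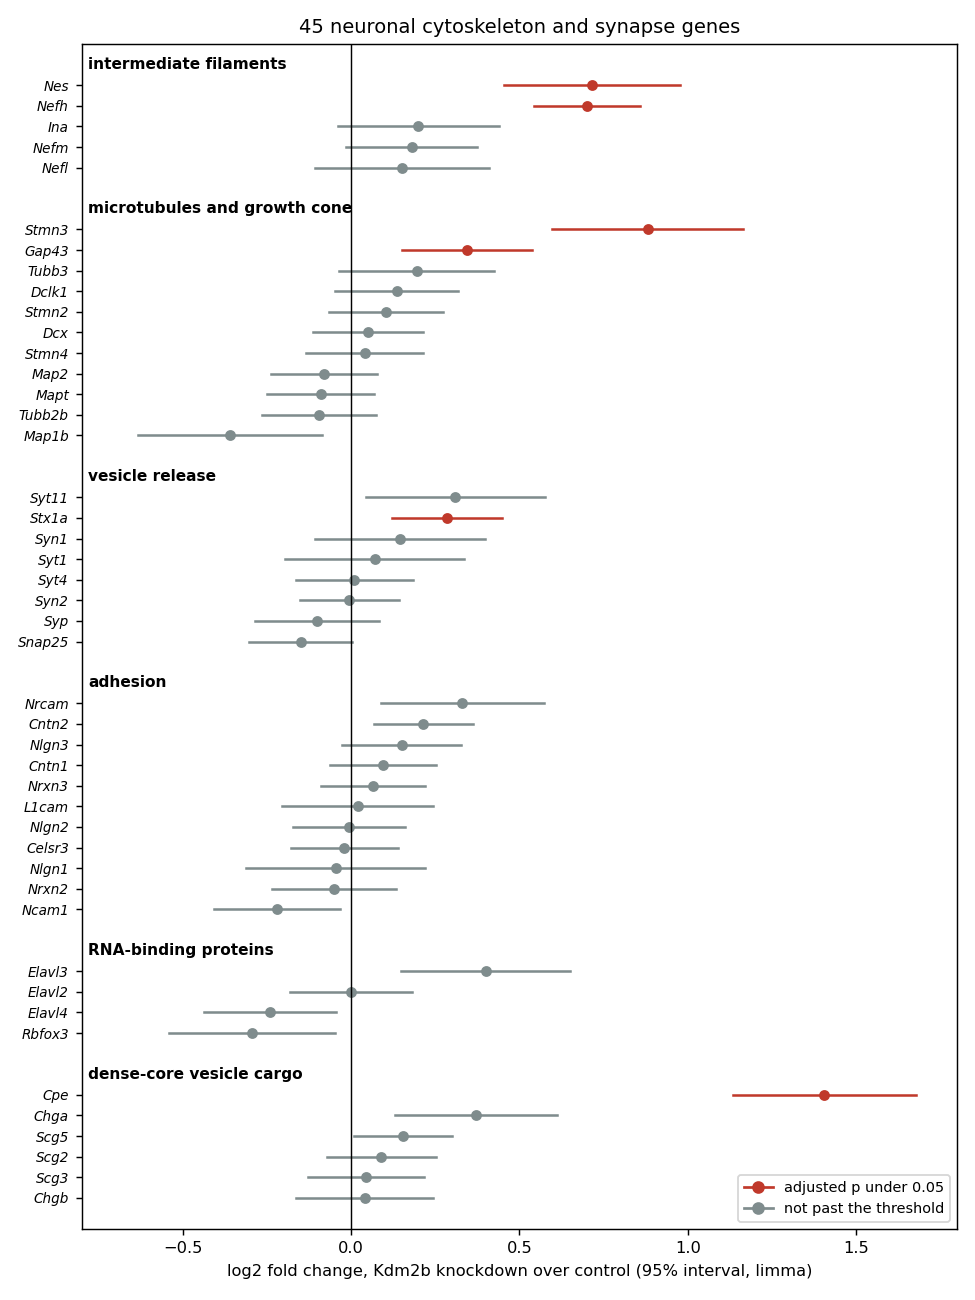
Log2 fold change of knockdown over control with its 95% interval (limma) for the 45 measured genes, by role and, within a role, from highest to lowest. The 6 genes past the threshold are red and lie between 0.285 (Stx1a) and 1.405 (Cpe), and the others are grey and lie between -0.36 (Map1b) and 0.40 (Elavl3).

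Genes of the same pathways outside the list were read from 7 further lists, beside shares of 5.0% higher and 7.19% lower over all genes. Of 35 other cytoskeletal genes measured, 5 were higher and 2 lower, with a median of 0.035. Map1a, a microtubule-associated protein of mature neurons, had 10.82 and 10.54 in knockdown cells, against 9.72 and 9.83 in control cells, and rose by 0.905 (SE 0.11, adjusted p = 0.00946, limma). Tppp3, which promotes tubulin polymerisation, rose by 0.57 (SE 0.071), and the doublecortin-like kinase gene Dclk2 fell by 0.575 (SE 0.10, adjusted p = 0.0225). Of 50 other genes of vesicle release and the synapse, none was higher and 3 were lower in limma (6 positive and 5 negative at an unadjusted p under 0.05). These were Syt5 (-0.74, SE 0.06, adjusted p = 0.00551), Dlg4, which encodes the postsynaptic scaffold PSD-95 (-0.39), and Sypl (-0.375). Syt5 read 9.97 and 9.99 in knockdown cells, against 10.71 and 10.73 in control cells, a wider gap than that of any synaptotagmin among the members.

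Of 28 other adhesion genes, 2 were higher and 2 lower, with Cntnap2 at -0.41, Chl1 at 0.40 and Celsr2 at -0.38. Chl1 was dim, with a mean log2 value of 6.53. Of 15 other RNA-binding proteins, 2 were higher and 1 lower. Msi1, or Musashi 1 of neural progenitors, read 9.94 and 9.99 in knockdown cells, against 10.95 and 10.70 in control cells, and fell by 0.86 (SE 0.095, adjusted p = 0.00859, limma). The splicing regulators Celf4 and Celf5 rose by 0.61 and 0.43. Of 13 other dense-core vesicle genes, Ptprn, a membrane protein of the granule, was higher (0.45) and Pcsk1, a prohormone convertase, lower (-0.58), with 11 not past the threshold. Pcsk1 was dim as well, with a mean of 7.95. Over the 183 genes of the 7 lists together, 14 were higher (7.65%) and 11 lower (6.01%), against the 5.0% and 7.19% of all genes.

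Rest itself was lower. It had 12.36 and 12.51 in knockdown cells, against 12.89 and 12.86 in control cells, and fell by 0.44 (SE 0.074, interval -0.622 to -0.258, adjusted p = 0.0204, limma), a level 1.36-fold lower. It was the only one of 13 genes of REST and its cofactors to pass. Its part in the values of the neuronal genes was not tested. Of 29 neurogenic transcription factors, 4 were higher and 1 lower, against 5.0% and 7.19% of all genes, with a median of 0.105. Pax6 stood at -0.80, Neurog3 at 0.395 and Sox4 at 0.375. Neurog3 was dim, with a mean log2 value of 8.44.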

How the data were processed

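Expression was measured in 2 Kdm2b knockdown and 2 control samples of E14 cells, grouped by their titles. The authors deposited log2 values per probe set, and the submitters' processing notes name Affymetrix Expression Console as the tool. Version, background step, summary method and scaling between arrays were not given in the sources used here. The log2 scale was inferred from the range of the values, 3.12 to 14.74, which are not centred per gene.

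Of 35557 probe sets, 21789 carried 1 symbol in the platform annotation, which gave 19938 genes. Of these probe sets, 21698 matched RefSeq (GRCm38.p6) by Entrez ID. Knockdown was compared with control by limma 3.58.1 in R 4.3.3 (lmFit and eBayes, group as the only term, two-sided) with Benjamini-Hochberg adjustment over all genes. SE and 95% intervals are limma's moderated ones, on 5.9 degrees of freedom (3.9 from the prior). In simulated data the procedure called 0 of 50 genes set at 1.25-fold and 21 of 50 at 1.5-fold. It called 35 of 50 at 2-fold, 45 of 50 at 3-fold and 0 of 19738 unchanged genes. A gene that did not pass may therefore still differ at the smaller sizes.

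The members, the lists and the tests were chosen with earlier results of these data known. Every called member is given in full, with the 2 largest differences of a role group that has none and up to 3 called genes from each further list. Prph and Basp1 were named outside this rule after their values were seen. The fit was repeated with a replicate block, without each array, after quantile normalization or median centring, without dim genes (mean log2 value at or under 8.52), and with other choices of probe sets and priors.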

Additional observations from a re-analysis of the deposited data

How the results depend on the processing

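The 6 members called higher numbered 7 after quantile normalization, 5 after median centring and 5 under an intensity trend, and 8 with dim genes removed. The replicate number as a block left 0 members and 0 genes called in either direction (5411 genes at an unadjusted p under 0.05). The replicate differences of the groups correlated at r = 0.095 across genes. The labels do not say whether a number marks a shared batch or day, and with 2 pairs this value does not settle it, so pairing was not assumed. Testing every probe set of the table, which was added after seeing the data, likewise left 0 members and 0 genes. Leaving out any 1 array also left 0 members and 0 genes, higher or lower, and over these 6 settings the adjusted p of the 6 genes ran from 0.0679 to 0.291. For all genes, 997 were higher and 1434 lower, from 841 (centring) to 1109 (trend) higher and from 1438 to 1866 lower in the settings that made calls. The members' median of 0.07 was 0.065 to 0.09 with an array left out. It was 0.025 after quantile normalization (0.0075 over all genes) and 0.03 with centring (-0.01 over all genes). With dim genes removed, where 28 members remained, it was 0.1475 (-0.005 over all genes kept). The cause of these shifts was not tested.

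The 24 changes of sign, in 11 members, all concerned log2 fold changes of at most 0.07 in size that were not called. With each array left out in turn, Stmn4 ran from -0.025 to 0.105, Syt1 from -0.04 to 0.18, Syt4 from -0.05 to 0.07, Syn2 from -0.015 to 0.005 and L1cam from -0.085 to 0.125. Nrxn2 ran from -0.115 to 0.015, Nlgn1 from -0.175 to 0.085, Nlgn2 from -0.055 to 0.045, Celsr3 from -0.065 to 0.025, Chgb from -0.03 to 0.11 and Scg3 from -0.015 to 0.105. After quantile normalization the sign turned for Stmn4 (-0.01125), Syt4 (-0.04625), L1cam (-0.0075), Nlgn2 (0.025) and Chgb (-0.01875), and after centring for Syt4 (-0.03) and L1cam (-0.02).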
